A study of Mus musculus with 10 samples.

Results

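Cyp11a1, Cyp21a1, Dio1 and Aldh1a1 encode enzymes that make, activate or inactivate steroid hormones, thyroid hormone and retinoids. Sult1d1, grouped with them here, encodes a sulfotransferase of catecholamines and other phenols. These 5 genes were selected on their measured CPM and fold changes in the libraries described here, for a level or a TGFbeta response that depended strongly on an siRNA against Irf1. They are 5 of the 24454 genes of the count table, and all 5 passed the filter on low counts that left 13135 genes for testing. Since the choice used every contrast of the study, the values of the 5 genes are given as a description, with no p-value. Where calls among the 5 are counted or followed across settings, they too are only a description. Tests are given for the other genes of the same pathways and for the genes that neighbour the 5 on the chromosome.

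The cells were NMuMG, a mouse mammary gland epithelial line that undergoes epithelial-mesenchymal transition (EMT) under TGFbeta, and were all from a single subclone (subclone 9), so they stand for 1 clone. All cells grew in serum-containing medium and all were transfected with 20 nM siRNA, either a control (siCtr) or one against Irf1 (siIrf1), the interferon regulatory factor 1. Recombinant human TGFbeta1 at 2 ng/ml was added 1 day after transfection to the cells labelled TGFbeta 2 d, and these were harvested on day 3, while the 0 d cells were transfected for the same 3 days without TGFbeta. The design has 2 libraries of siCtr 0 d (R1 and R3), 3 of siIrf1 0 d (R1 to R3), 2 of siCtr TGFbeta (R2 and R3) and 3 of siIrf1 TGFbeta (R1 to R3). The labels do not say that libraries are separate cultures, so the p-values below measure the spread between these libraries, which may be technical.

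Steroid hormones are made from cholesterol. Cyp11a1, the mitochondrial side-chain cleavage enzyme, turns cholesterol into pregnenolone, and Cyp21a1, the steroid 21-hydroxylase of the endoplasmic reticulum, acts further along, on the way to corticosterone and aldosterone. Both are best known from the adrenal cortex, and Cyp11a1 also from gonads and placenta. Thyroid hormone is activated and cleared by deiodinases, selenoproteins that remove iodine, and Dio1 is the form of liver, kidney and thyroid. Cytosolic sulfotransferases such as Sult1d1, which acts on catecholamines and other phenols, attach sulfate to small molecules. Aldh1a1 oxidises retinaldehyde to retinoic acid, the ligand of the RAR nuclear receptors, and is widely used as a marker of progenitor-like cells in mammary epithelium.

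On GRCm38.p6, Cyp11a1 (Entrez 13070) lies at chr9:57998024-58027031 on the plus strand and Cyp21a1 (13079) at chr17:34801348-34804426 on the minus strand. Dio1 (13370) lies at chr4:107291465-107307168 on the minus strand, Sult1d1 (53315) at chr5:87554650-87569006 on the minus strand and Aldh1a1 (11668) at chr19:20492583-20643463 on the plus strand. RefSeq promoter windows, from 250 bases before to 50 bases after a transcript start, were at hand for Cyp11a1, Dio1, Sult1d1 and Aldh1a1. The windows shown let the sequence around the starts of a gene that was higher with TGFbeta (Cyp11a1) be read beside those of 3 that were lower in siCtr cells. For Cyp11a1 and Aldh1a1, which have 2 windows each, the downstream one is shown, at chr9:58014702-58015001 and chr19:20601718-20602017. Those of Dio1 and Sult1d1 are chr4:107307119-107307418 and chr5:87568957-87569256. Each is written in the direction of transcription, with capitals for the letters that match 1 of the searched motifs on either strand:
Cyp11a1: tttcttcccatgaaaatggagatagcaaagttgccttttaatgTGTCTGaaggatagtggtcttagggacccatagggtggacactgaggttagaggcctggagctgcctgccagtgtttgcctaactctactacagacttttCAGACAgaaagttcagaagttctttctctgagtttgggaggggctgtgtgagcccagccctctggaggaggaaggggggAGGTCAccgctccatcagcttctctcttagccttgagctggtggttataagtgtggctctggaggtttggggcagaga
Dio1: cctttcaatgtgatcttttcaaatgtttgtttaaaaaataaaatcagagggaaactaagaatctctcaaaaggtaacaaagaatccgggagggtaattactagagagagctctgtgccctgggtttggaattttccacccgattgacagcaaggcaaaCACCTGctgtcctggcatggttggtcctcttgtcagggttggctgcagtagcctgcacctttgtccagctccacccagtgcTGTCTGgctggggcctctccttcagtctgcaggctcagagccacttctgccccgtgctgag
Sult1d1: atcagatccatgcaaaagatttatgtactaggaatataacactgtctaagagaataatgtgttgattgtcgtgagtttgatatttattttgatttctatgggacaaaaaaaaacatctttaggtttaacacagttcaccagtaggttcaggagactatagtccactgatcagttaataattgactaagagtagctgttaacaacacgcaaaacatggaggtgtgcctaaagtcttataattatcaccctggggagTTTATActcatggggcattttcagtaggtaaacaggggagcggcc
Aldh1a1: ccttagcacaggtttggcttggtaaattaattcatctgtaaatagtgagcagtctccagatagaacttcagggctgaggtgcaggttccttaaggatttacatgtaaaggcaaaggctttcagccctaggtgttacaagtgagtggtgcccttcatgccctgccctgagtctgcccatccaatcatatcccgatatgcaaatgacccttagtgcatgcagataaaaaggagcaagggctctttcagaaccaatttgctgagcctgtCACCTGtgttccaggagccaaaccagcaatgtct

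The motifs searched on both strands were the pair GAAA and GAAA with 2 bases of any kind between them (bound by interferon regulatory factors), TGANTCA (AP-1), CAGACA (Smad proteins), AGGTCA (nuclear receptors), CAGGTG (an E-box bound by Snai1 and Zeb factors) and TATAAA (the TATA box). No 2 of the matches in these windows overlap. The GAAA pair was in none of the 6 windows of the 4 genes, against 3.44% of 32851 RefSeq windows. The Cyp11a1 window holds CAGACA at 207 and 107 bases before the start, a motif found in 21.04% of all windows, and AGGTCA at 28 bases before it, found in 16.3%. The Dio1 window holds CAGGTG at 92 and CAGACA at 11 bases before the start, and the Aldh1a1 window holds CAGGTG within the transcribed bases. CAGGTG occurs in 20.2% of all windows. The upstream Aldh1a1 window holds TGANTCA at 57 bases before its start, against 7.81% of all windows, and CAGGTG. The upstream Cyp11a1 window holds CAGGTG at 2 places. The Sult1d1 window holds only TATAAA, on the reverse strand just after the start, against 13.6% of all windows. These are matches of letters in a window, not sites shown to be bound.

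The libraries held 27547649 to 67301646 counts over genes. Values below are CPM, counts divided by the TMM-scaled library total and scaled to the usual common total, and log2 fold changes are from edgeR. The SE given with a log2 fold change is its absolute value divided by the square root of the F statistic. It can understate counting error where a group holds few counts. Irf1 itself was at 138 ± 13.4 CPM (SD, n = 2) in siCtr 0 d and 59.4 ± 4.17 (n = 3) in siIrf1 0 d, and at 109 ± 3.57 (n = 2) and 41.2 ± 4.85 (n = 3) with TGFbeta. It fell by 1.22 ± 0.15 (SE) with the siRNA at 0 d (adjusted p = 7.95e-04, edgeR) and by 1.40 ± 0.15 with TGFbeta (adjusted p = 3.48e-04). Replicates correlated at 0.971 to 0.995 in log2 CPM over tested genes, and no pair of replicates agreed within counting noise (chi-square at least 25.5 per degree of freedom). The libraries differed in the level of AT-rich genes, measured on a log2 scale as the fifth of genes lowest in GC minus the fifth highest. Every siCtr library had a negative value: -1.58 (R1) and -0.65 (R3) at 0 d, -0.31 (R2) and -0.33 (R3) under TGFbeta. The siIrf1 0 d libraries had positive ones, from 0.08 to 0.87. Among siIrf1 TGFbeta libraries, R1 and R3 had 0.78 and 0.94, while R2 had -0.38. Apart from siIrf1 TGFbeta R2, the sign thus went with the siRNA, so comparisons between siRNAs also compare libraries that differ in this measure. Among luminal markers, Krt8 (2012 to 5293 CPM) and Cdh1 (339 to 722 CPM) were high in every library, while Epcam had 1 count in all and Esr1, Pgr, Prlr, Csn2, Wap and Lalba had none. The list of 15 luminal markers summed to 6955 to 14746 CPM and that of 8 basal markers to 67.1 to 150.2 CPM. Mylk (53.4 to 136.3 CPM) made up most of the basal sum. Trp63 stayed at or under 0.0905 CPM and Krt14 at or under 1.75, while Krt5 reached 16.0 and Acta2 18.6. Of 9 markers of steroid-making adrenal and gonadal cells, Hsd3b1, Cyp11b2 and Lhcgr were at 0, 8 were under 1 CPM throughout, and their sum stayed between 1.22 and 1.84 CPM. The 8 fibroblast and pericyte markers, 2 of them at 0, summed to 0.52 to 1.10 CPM at 0 d and 27.2 to 39.0 with TGFbeta, where Pdgfrb and Col1a1 held most of the sum. The 12 hepatocyte markers, with Alb under 0.1 CPM throughout, summed to 9.73 to 13.6 CPM in siCtr TGFbeta and 24.5 to 45.1 in the other groups, mostly from Apob and Fgb. Immune markers summed to 6.39 to 6.89 CPM in siCtr TGFbeta and 1.82 to 3.09 elsewhere, and endothelial markers to 6.00 to 6.64 and 0.50 to 2.17. In siCtr TGFbeta, single genes made up most of these sums, Cd68 with a mean of 6.29 CPM and Cdh5 with 5.42, while Cd3e and Adgre1 had no count in any library and Pecam1, Kdr and Tek stayed at or under 0.133 CPM. Kidney tubule markers summed to 2.16 to 19.4 and adipocyte markers to 0.58 to 4.13 CPM. The part of these differences in the results below was not tested.

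Cyp11a1, the first enzyme of steroid synthesis, was almost silent without TGFbeta. With it, Cyp11a1 was at a middling level in siCtr cells and at a low one in siIrf1 cells. It was at 0.079 and 0.061 CPM in siCtr 0 d, from 2 counts in each library, and at 20.7 and 27.1 CPM in siCtr TGFbeta. The siIrf1 0 d libraries held 0.314, 0.633 and 0.712 CPM, and the siIrf1 TGFbeta libraries 3.19, 2.80 and 3.01. No library of any group overlapped with one of another group, and the order of the groups was siCtr 0 d, siIrf1 0 d, siIrf1 TGFbeta and siCtr TGFbeta. From the summed counts, TGFbeta raised it 349-fold in siCtr cells (exact 95% interval 136 to 1283, which covers counting error only), against 5.42-fold in siIrf1 cells. On the log2 scale the changes were 8.38 ± 0.47 and 2.41 ± 0.28, and they differed by -5.97 ± 0.56. SEs that rest on the 4 counts of siCtr 0 d understate the counting error that the exact interval covers. The effect of siIrf1 thus had opposite signs in the 2 states, 2.97 ± 0.52 without TGFbeta and -2.99 ± 0.27 with it (7.97-fold lower). Since RNA came from whole cultures, fewer cells that express a gene and less RNA per cell cannot be told apart.

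Cyp21a1, the 21-hydroxylase, was also higher with TGFbeta, but its level differed between siRNAs without TGFbeta and overlapped between them with it. It was at 1.45 and 1.42 CPM in siCtr 0 d and at 0.063, 0 and 0.053 in siIrf1 0 d, from 2, 0 and 2 counts. With TGFbeta the siCtr libraries held 27.7 and 26.1 CPM and the siIrf1 libraries 25.6, 34.7 and 22.2, which overlap. The change with TGFbeta was 18.7-fold in siCtr cells (log2 4.22 ± 0.38). In siIrf1 cells it was 783-fold from the summed counts (exact 95% interval 306 to 2875, log2 9.48 ± 0.45). The 2 log2 changes differed by 5.26 ± 0.62. SEs that rest on the 4 counts of siIrf1 0 d understate the counting error that the exact intervals cover. Without TGFbeta, the siIrf1 minus siCtr difference was -5.22 ± 0.52 on the log2 scale. From the summed counts, siIrf1 cells were 41.0-fold lower (exact 95% interval 16.0 to 150.5). With TGFbeta the siIrf1 minus siCtr difference was 0.03 ± 0.29. Without siIrf1 0 d R2, the library at 0 counts, the TGFbeta change in siIrf1 cells came to 8.83, the difference at 0 d to -4.57 and the difference between the TGFbeta changes to 4.60. Of the 50-base windows of the Cyp21a1 transcript, 26.5% occur in another gene, above all the pseudogene Cyp21a2-ps, and none of the other members except Aldh1a1 has any such window. The split of its reads with that copy is therefore uncertain. The pseudogene Tnxa also overlaps Cyp21a1, on the opposite strand, and without the strand setting of the counting, reads of the 2 cannot be told apart.

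Cyp11a1 and Cyp21a1 reached like levels per length in siCtr TGFbeta, 13.5 ± 2.52 and 13.99 ± 0.61 CPM per kb (SD, n = 2). In siIrf1 TGFbeta they stood apart, at 1.69 ± 0.11 and 14.3 ± 3.38 CPM per kb (n = 3). By level per length, Cyp11a1 went from above 3.56% of tested genes in siCtr 0 d to above 59.3% in siCtr TGFbeta, and Cyp21a1 from 19.3% to 60.1%.

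**Figure D1:**
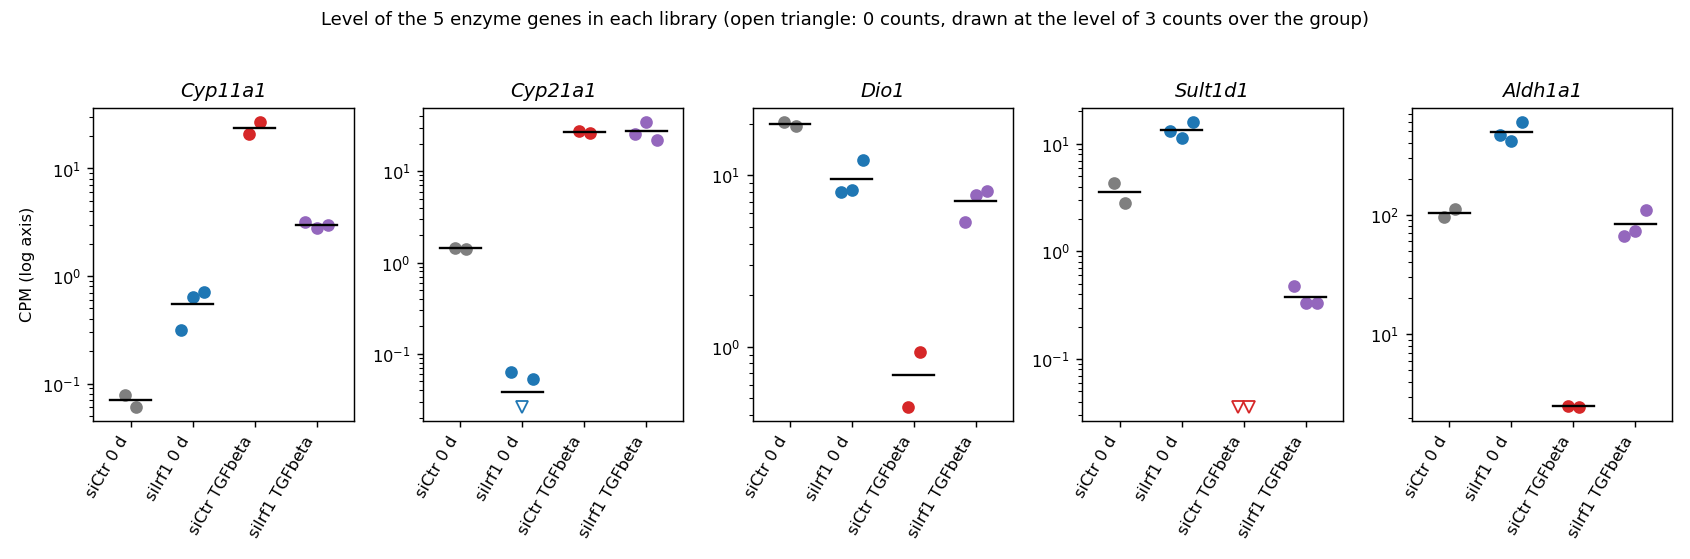
CPM of each of the 5 genes in all 10 libraries, on a log10 axis. Points are libraries and bars the group means, coloured by group. Cyp11a1 and Cyp21a1 are highest with TGFbeta, while Dio1, Sult1d1 and Aldh1a1 are lowest in siCtr TGFbeta, where Sult1d1 is at 0 counts.

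Dio1, the type 1 deiodinase, was far lower with TGFbeta in siCtr cells and little changed in siIrf1 cells. Its siCtr 0 d libraries held 20.5 and 19.3 CPM and its siCtr TGFbeta libraries 0.447 and 0.933, a 28.9-fold drop (log2 -4.90 ± 0.42). The siIrf1 libraries held 8.04, 8.19 and 12.4 CPM without TGFbeta and 5.31, 7.72 and 8.12 with it. Those 2 groups overlap, and the TGFbeta change in siIrf1 cells was -0.43 ± 0.28, so the 2 changes differed by 4.47 ± 0.49. Without TGFbeta, Dio1 was 2.09-fold lower in siIrf1 cells (log2 -1.06 ± 0.31). With TGFbeta it was 10.2-fold higher in them (3.41 ± 0.39). Leaving out siCtr TGFbeta R2 gave -4.32 for the drop in siCtr cells, and leaving out R3 gave -5.39. For the difference at 0 d, leaving out 1 library gave values from -0.95 (without siIrf1 0 d R1) to -1.29 (without R3).

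Sult1d1, the sulfotransferase, was far lower with TGFbeta in both kinds of cells and had the lowest level per length of the 5 there. It was at 4.36 and 2.82 CPM in siCtr 0 d and at 13.2, 11.3 and 16.0 in siIrf1 0 d, with no overlap. With TGFbeta no count was seen in either siCtr library, while the siIrf1 libraries held 0.472, 0.332 and 0.331 CPM. Taking 3 counts over the group as the floor, TGFbeta lowered Sult1d1 at least 100.2-fold in siCtr cells. In siIrf1 cells it was 35.6-fold lower with TGFbeta (log2 -5.16 ± 0.30). With TGFbeta it was at least 10.6-fold higher in siIrf1 than in siCtr cells. The fitted difference between the TGFbeta changes, 4.97 ± 1.13, depends on the prior count for the group at 0 and is no bound. Its value was 4.41 in DESeq2, 4.72 with the replicate block, 4.68 to 5.21 with 1 library left out, and 6.75 once the trend of values on gene length and GC was taken out (the correction for gene length and GC below), or 6.91 with the block as well. At 0 d it was 3.76-fold higher in siIrf1 cells (log2 1.91 ± 0.29). After that correction, the difference at 0 d was -0.14. Sult1d1 has a GC content of 32.9%, against a median of 49.8% over tested genes, and the 25 tested genes within 2 percentage points of it had a median difference of 1.31 in the same contrast, 36.0% of them above Sult1d1. With TGFbeta, the same genes had a median of 0.86. Sult1d1 is not ranked among them there, since its fitted value depends on the prior count for the group at 0.

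Aldh1a1, the retinaldehyde dehydrogenase, was higher with siIrf1 in both states and lower with TGFbeta under both siRNAs. Per length it was the most abundant of the 5 in every group but siCtr TGFbeta. It was at 95.9 and 112.3 CPM in siCtr 0 d and at 469, 412 and 598 in siIrf1 0 d. With TGFbeta, the siCtr libraries held 2.53 and 2.46 CPM and the siIrf1 libraries 66.1, 73.6 and 109.1. Only siCtr 0 d and siIrf1 TGFbeta overlapped. TGFbeta lowered it 41.7-fold in siCtr cells (log2 -5.38 ± 0.31) and 5.94-fold in siIrf1 cells (-2.57 ± 0.22), which differ by 2.81 ± 0.34. It was 4.74-fold higher with siIrf1 without TGFbeta (2.24 ± 0.25) and 33.2-fold higher with TGFbeta (5.05 ± 0.30). In level per length it stood above 97.9% of tested genes in siIrf1 0 d (243 CPM per kb), above 85.5% in siCtr 0 d (51.2), above 83.4% in siIrf1 TGFbeta (40.8) and above 21.6% in siCtr TGFbeta (1.23). Of the 50-base windows of its transcript, 6.54% occur in another gene, mostly Aldh1a7, so reads of the 2 could be split differently.

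**Figure D2:**
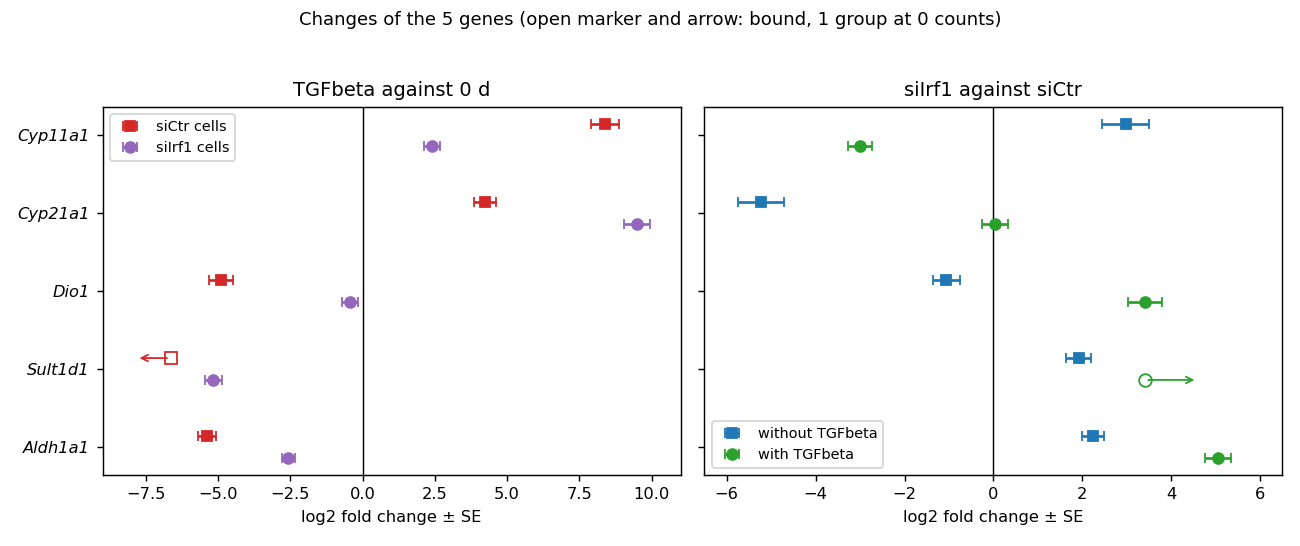
log2 fold change and its SE for each of the 5 genes, with TGFbeta against 0 d on the left and siIrf1 against siCtr on the right. For Cyp11a1 and Cyp21a1, the SE understates counting error where a group holds 4 counts. The open marker and arrow for Sult1d1 mark a bound, since siCtr TGFbeta had 0 counts. Cyp11a1 and Dio1 lie on opposite sides of 0 in the 2 states of the right panel, and Cyp21a1 lies at 0.03 with TGFbeta.

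Counted over the 5, 2 were called higher (beside 16.1% of tested genes) and 3 lower (16.3%) with TGFbeta in siCtr cells, where 32.5% of tested genes passed in all. In siIrf1 cells 2 were called higher (11.6%) and 2 lower (9.71%), beside 21.3% in all. With siIrf1 at 0 d, 3 were called higher (16.3%) and 2 lower (15.5%), beside 31.8%, and with TGFbeta 3 higher (9.72%) and 1 lower (8.28%), beside 18.0%. The TGFbeta change of 4 was called higher in siIrf1 than in siCtr cells (2.80%) and that of 1 lower (1.32%), beside 4.12%. The Sult1d1 call for that difference held after correction for gene length and GC but ended with the replicate block. It also ended without siCtr 0 d R1, any siIrf1 0 d library, or siCtr TGFbeta R2 or R3. At 0 d, the Sult1d1 call for siIrf1 ended after that correction. The Dio1 call for siIrf1 at 0 d ended without siCtr 0 d R1 or R3, or siIrf1 0 d R1 or R2. The libraries of the groups compared did not overlap for 5 of the 5 genes with TGFbeta in siCtr cells (71.9% of tested genes), 4 in siIrf1 cells (35.8%), 5 with siIrf1 at 0 d (62.3%) and 4 with siIrf1 and TGFbeta (46.3%). Since these contrasts chose the members, the counts say nothing further about them. Over the 10 libraries, Dio1, Sult1d1 and Aldh1a1 correlated with each other at 0.79 to 0.92 in log2 CPM, and Cyp11a1 and Cyp21a1 at 0.67. The pairs across those sets ran from -0.51 (Cyp21a1 and Dio1) to -0.91 (Cyp21a1 and Sult1d1). The 10 libraries share 4 groups, so these are descriptions of the group pattern. Among 11566 other genes, the patterns most like Cyp11a1 were those of Fhod3, Nectin4 and Chsy1 (Pearson r 0.984, 0.983 and 0.982 over the 10 libraries), and those most like Cyp21a1 were Acsbg1, Ctse and Foxf2 (0.992, 0.991 and 0.986). Nearest to Dio1 were Slc17a4, Cfb and Vat1l (0.990, 0.988 and 0.986). Nearest to Sult1d1 were Slc5a4b, Cldn10 and Reg4 (0.995, 0.991 and 0.990). Nearest to Aldh1a1 were Slc7a15, Mrgprb3 and Ugt2b36 (0.995, 0.994 and 0.994).

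The other genes of these pathways were taken from 7 lists. These were chosen with earlier results of these data known, so the shares below are a description. The lists held 154 genes in all, of which 102 were tested. With TGFbeta in siCtr cells, 13 rose and 41 fell, or 52.9% of them beside 32.5% of all tested genes, with a median log2 change of -0.44 beside 0.02. In siIrf1 cells 13 rose and 22 fell (34.3% beside 21.3%), with a median of -0.13 beside 0.02. For siIrf1 against siCtr, 14 were higher and 29 lower at 0 d (42.2% beside 31.8%, median -0.24 beside -0.03), and 15 higher and 9 lower with TGFbeta (23.5% beside 18.0%, median 0.07 beside 0.05). The TGFbeta change differed between siRNAs for 10 (9.80% beside 4.12%), 9 of them in the direction of a higher value in siIrf1 cells. These counts rest on single libraries: without siCtr TGFbeta R2, they were 30 for TGFbeta in siCtr cells, 10 for siIrf1 with TGFbeta and 1 for the difference, and without R3 they were 35, 17 and 4. Without siCtr 0 d R1, the count for siIrf1 at 0 d was 21, without siIrf1 0 d R1 28 and without siIrf1 0 d R3 24, and without siCtr 0 d R3 the count for the difference was 16.

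**Figure D3:**
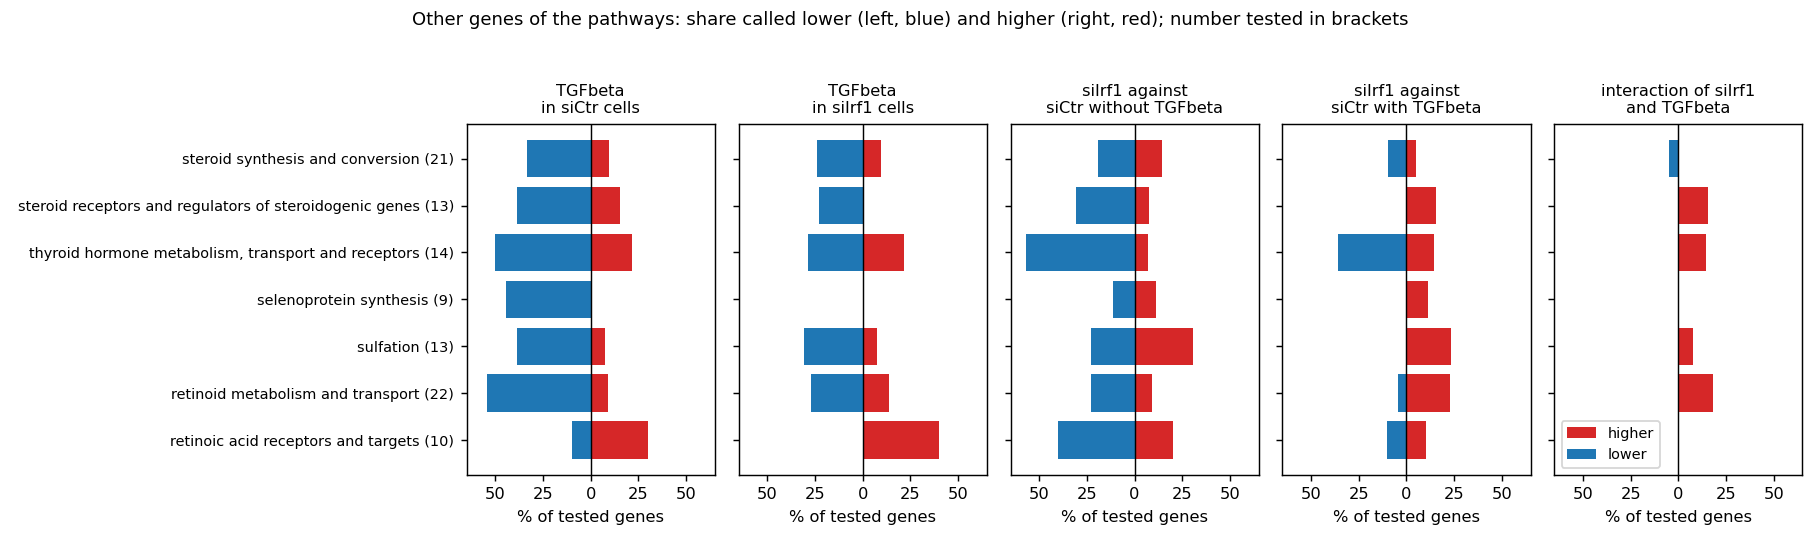
Share of the tested genes of each pathway list that were called lower (left of 0, blue) or higher (right of 0, red), with the number tested in brackets, in the 5 contrasts. The axis gives percent of tested genes. Most calls with TGFbeta in siCtr cells are to the lower side, as for 12 of 22 retinoid metabolism genes.

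In the list of steroid synthesis and conversion (21 of 34 tested), 2 rose and 7 fell with TGFbeta in siCtr cells and 2 rose and 5 fell in siIrf1 cells. With siIrf1, 3 were higher and 4 lower at 0 d and 1 higher and 2 lower with TGFbeta. Star, which brings cholesterol to Cyp11a1, stayed at 1.22 to 1.56 CPM in the 4 group means and passed in no contrast (adjusted p at least 0.619, edgeR). Fdxr, the reductase that starts the electron chain to Cyp11a1, passed in none either, with group means of 10.0 to 17.2 CPM, but with the replicate block it was lower with siIrf1 at 0 d (-0.99, adjusted p = 0.0160). Fdx1, the ferredoxin that hands those electrons to Cyp11a1, went from 14.2 ± 1.48 to 9.10 ± 1.13 CPM with TGFbeta in siCtr cells (log2 -0.65 ± 0.21, adjusted p = 0.0397). That call ended with other size factors (-0.60), other filters on low counts or the replicate block (-0.51), with the compared groups fitted alone, and on leaving out any library other than siIrf1 0 d R2 and siIrf1 TGFbeta R2 and R3. In siIrf1 cells Fdx1 was at 16.0 ± 2.01 and 11.3 ± 0.48 CPM (-0.50 ± 0.17, adjusted p = 0.0635; 0.0461 with the replicate block). Por, which passes electrons to Cyp21a1, was at 244 ± 6.04 CPM in siCtr 0 d and 125 ± 20.3 in siIrf1 0 d (log2 -0.97 ± 0.21, adjusted p = 0.0078). With TGFbeta, Por fell to 127 ± 5.60 CPM in siCtr cells (-0.95 ± 0.23, adjusted p = 0.0114), a call that ended without siCtr 0 d R3 (-0.80) or siCtr TGFbeta R2 (-0.90) or R3 (-0.83). In siIrf1 TGFbeta it was at 84.2 ± 21.3 CPM (-0.57 ± 0.19 against siIrf1 0 d, adjusted p = 0.0590; 0.0204 with the replicate block). The 2 enzymes that interconvert active and inactive glucocorticoid moved in opposite ways with TGFbeta. Hsd11b1, which regenerates the active form, went from 72.4 ± 1.58 to 17.0 ± 1.19 CPM in siCtr cells (adjusted p = 2.00e-05) and from 57.8 ± 4.61 to 5.42 ± 0.58 in siIrf1 cells (adjusted p = 1.16e-06). Hsd11b2, which inactivates it, rose from 0.154 ± 0.004 to 8.10 ± 0.61 CPM in siCtr cells (log2 5.69 ± 0.38, adjusted p = 4.79e-06) and from 0.126 ± 0.058 to 3.69 ± 0.29 in siIrf1 cells (4.87 ± 0.31, adjusted p = 4.17e-06). Akr1c14, a 3-alpha-hydroxysteroid dehydrogenase, was at 0.565 ± 0.188 CPM in siCtr 0 d and 11.1 ± 2.83 in siIrf1 0 d (4.27 ± 0.41, adjusted p = 2.36e-04). It was at 0.476 ± 0.249 and 4.99 ± 0.72 with TGFbeta (3.31 ± 0.39, adjusted p = 5.18e-04). These 2 differences were 2.72 and 2.37 after correction for gene length and GC, and the latter was 3.98 without siCtr TGFbeta R2.

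Among steroid receptors and regulators of steroidogenic genes (13 of 19 tested), 2 rose and 5 fell with TGFbeta in siCtr cells and none rose and 3 fell in siIrf1 cells. Under siIrf1, 1 was higher and 4 lower at 0 d, and 2 higher and none lower with TGFbeta. Nr5a1, the main activator of adrenal steroid genes, had too few counts to be tested. Nr5a2, its close relative, was at 1.94 ± 0.69 CPM in siCtr 0 d and had no count in siCtr TGFbeta, at least 54.1-fold lower (adjusted p = 5.76e-05). In siIrf1 cells it fell from 1.66 ± 0.24 to 0.176 ± 0.075 CPM (log2 -3.15 ± 0.38, adjusted p = 3.19e-04). Nr3c2, the mineralocorticoid receptor, fell from 14.2 ± 3.90 to 2.81 ± 0.18 CPM in siCtr cells (-2.34 ± 0.29, adjusted p = 1.94e-04) and from 10.2 ± 0.64 to 4.07 ± 0.93 in siIrf1 cells (-1.32 ± 0.23, adjusted p = 0.0021). Tsc22d3, a glucocorticoid-induced gene also known as Gilz, fell from 71.0 ± 1.46 to 17.7 ± 1.10 CPM in siCtr cells (-2.004 ± 0.20, adjusted p = 3.97e-05). In siIrf1 cells it was at 26.5 ± 3.65 and 29.4 ± 2.80 CPM, and the 2 changes differed by 2.15 ± 0.25 (adjusted p = 0.0016).

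For thyroid hormone metabolism, transport and receptors (14 of 21 tested), 3 rose and 7 fell with TGFbeta in siCtr cells and 3 rose and 4 fell in siIrf1 cells. For siIrf1 against siCtr, 1 was higher and 8 lower at 0 d and 2 higher and 5 lower with TGFbeta. Dio2, the deiodinase that makes active hormone inside cells, had no count in any library. Dio3, which inactivates the hormone, fell from 29.0 ± 2.87 to 0.631 ± 0.050 CPM in siCtr cells (log2 -5.52 ± 0.32, adjusted p = 2.82e-06) and from 10.8 ± 0.07 to 1.36 ± 0.40 in siIrf1 cells (-2.96 ± 0.23, adjusted p = 1.51e-05). At 0 d it was lower in siIrf1 cells by -1.42 ± 0.23 (adjusted p = 0.0022). Dio1 and Dio3 were thus both lower with TGFbeta in siCtr cells. Thra, a thyroid hormone receptor, fell from 83.5 ± 1.89 to 33.5 ± 2.55 CPM in siCtr cells (-1.32 ± 0.24, adjusted p = 0.0020), while in siIrf1 cells its means were 53.3 ± 9.90 and 40.4 ± 8.72 (adjusted p = 0.187). The difference between the 2 changes of Thra did not pass (0.92 ± 0.30, adjusted p = 0.138), but did with the replicate block (1.13, adjusted p = 0.0369). Hr, a thyroid hormone target that encodes a corepressor, rose from 14.5 ± 0.73 to 115 ± 10.6 CPM in siCtr cells (2.99 ± 0.32, adjusted p = 8.75e-05) and from 5.64 ± 1.81 to 27.6 ± 6.67 in siIrf1 cells (2.29 ± 0.26, adjusted p = 1.55e-04). It was lower with siIrf1 at 0 d (-1.35 ± 0.28, adjusted p = 0.0064) and with TGFbeta (-2.05 ± 0.27, adjusted p = 9.78e-04). Slc7a5, an amino acid carrier that also moves thyroid hormone, fell from 614 ± 88.9 to 245 ± 0.33 CPM with TGFbeta in siCtr cells (-1.33 ± 0.17, adjusted p = 2.19e-04). At 0 d it was at 175 ± 20.2 CPM in siIrf1 cells (-1.81 ± 0.15, adjusted p = 1.51e-04).

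Of 9 genes for making selenoproteins, the class Dio1 belongs to, none rose and 4 fell with TGFbeta in siCtr cells and none passed in siIrf1 cells. Sephs2, which makes the selenium donor, fell from 245 ± 75.7 to 101 ± 6.18 CPM in siCtr cells (log2 -1.28 ± 0.22, adjusted p = 0.0017). In siIrf1 cells it was at 169 ± 13.995 and 138 ± 19.8 CPM (adjusted p = 0.323), and the difference between the 2 changes did not pass (0.99 ± 0.28, adjusted p = 0.0915). Secisbp2, which reads the selenocysteine signal in the mRNA, passed in no contrast, with group means of 16.8 to 22.4 CPM. With siIrf1, 1 was higher and 1 lower at 0 d, and 1 higher with TGFbeta.

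In the sulfation list (13 of 23 tested), 1 rose and 5 fell with TGFbeta in siCtr cells and 1 rose and 4 fell in siIrf1 cells. Under siIrf1, 4 were higher and 3 lower at 0 d and 3 higher and none lower with TGFbeta. Papss1, which makes the sulfate donor, passed in no contrast and stayed at 122 to 163 CPM in the group means. Sult1c2 fell from 69.8 ± 40.9 to 3.42 ± 0.68 CPM in siCtr cells (log2 -4.36 ± 0.41, adjusted p = 3.85e-05) and from 158 ± 27.4 to 15.0 ± 1.74 in siIrf1 cells (-3.40 ± 0.32, adjusted p = 4.61e-05). Without siCtr 0 d R3 the former was -3.47. Sult1a1, a phenol sulfotransferase, was at 1.52 ± 0.81 CPM in siCtr 0 d and 0.033 ± 0.047 in siCtr TGFbeta (adjusted p = 3.44e-04), and fell from 5.67 ± 1.25 to 0.369 ± 0.032 in siIrf1 cells (-3.95 ± 0.42, adjusted p = 9.41e-05). Sult2b1, which sulfates cholesterol and hydroxysteroids, fell from 41.8 ± 3.57 to 11.3 ± 0.96 CPM in siCtr cells (-1.88 ± 0.25, adjusted p = 3.30e-04) and was at 24.7 ± 4.53 and 21.8 ± 4.57 in siIrf1 cells. Sult1b1, a neighbour of Sult1d1, was at 0.425 ± 0.213 CPM in siCtr 0 d and 1.52 ± 0.33 in siIrf1 0 d (1.79 ± 0.42, adjusted p = 0.0111). It was 0.11 after correction for gene length and GC, 1.38 without siCtr 0 d R1, neither past the threshold, and 2.51 without R3.

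In the list of retinoid metabolism and transport (22 of 31 tested), 2 rose and 12 fell with TGFbeta in siCtr cells and 3 rose and 6 fell in siIrf1 cells. For siIrf1 against siCtr, 2 were higher and 5 lower at 0 d and 5 higher and 1 lower with TGFbeta. Rbp4, the retinol carrier of plasma, fell from 865 ± 184 to 71.2 ± 6.30 CPM in siCtr cells (log2 -3.60 ± 0.22, adjusted p = 3.79e-06) and from 519 ± 64.9 to 153 ± 20.4 in siIrf1 cells (-1.77 ± 0.17, adjusted p = 4.56e-05). Stra6, the membrane receptor that takes retinol from Rbp4, fell from 36.3 ± 0.94 to 11.6 ± 0.61 CPM in siCtr cells (-1.64 ± 0.20, adjusted p = 1.84e-04), while in siIrf1 cells it was at 32.1 ± 5.18 and 33.4 ± 2.40. The TGFbeta changes of Stra6 differed by 1.70 ± 0.26 (adjusted p = 0.0057), a call that ended without siCtr TGFbeta R2 (1.67) or R3 (1.58). The enzymes of the step from retinol to retinaldehyde did not move together. Adh7 fell from 583 ± 77.3 to 53.2 ± 12.95 CPM in siCtr cells (-3.45 ± 0.36, adjusted p = 6.84e-05) and from 321 ± 56.3 to 60.7 ± 23.8 in siIrf1 cells (-2.40 ± 0.28, adjusted p = 1.87e-04). Rdh10 rose from 93.5 ± 31.3 to 599 ± 28.6 CPM in siCtr cells (2.68 ± 0.34, adjusted p = 2.63e-04) and from 106 ± 41.2 to 335 ± 31.0 in siIrf1 cells (1.66 ± 0.27, adjusted p = 0.0016). Dhrs3, which returns retinaldehyde to retinol, fell from 23.6 ± 1.05 to 0.482 ± 0.261 CPM in siCtr cells (-5.68 ± 0.60, adjusted p = 8.39e-05; -5.05 without siCtr TGFbeta R2) and from 18.1 ± 6.62 to 2.66 ± 1.11 in siIrf1 cells (-2.75 ± 0.41, adjusted p = 9.44e-04).

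Of the other dehydrogenases of Aldh1a1's own step, Aldh1a2 had too few counts to be tested, and Aldh1a3 had no count in siCtr 0 d and was at 0.765 ± 0.002 CPM in siCtr TGFbeta, at least 14.9-fold higher (adjusted p = 5.92e-04). In siIrf1 TGFbeta it was at 0.035 ± 0.023 CPM (adjusted p = 0.0010 against siCtr TGFbeta). Aldh1a7 is a close copy of Aldh1a1 and its neighbour, and no part in that step is assumed for it. Aldh1a7 was at 7.02 ± 4.09 CPM in siCtr 0 d, 26.3 ± 4.24 in siIrf1 0 d, 0.673 ± 0.320 in siCtr TGFbeta and 8.82 ± 1.51 in siIrf1 TGFbeta. It fell with TGFbeta in siCtr cells by 3.44 ± 0.48 (adjusted p = 4.41e-04) and in siIrf1 cells by 1.58 ± 0.33 (adjusted p = 0.0070). It was higher in siIrf1 cells by 1.90 ± 0.39 at 0 d (adjusted p = 0.0068) and by 3.76 ± 0.46 with TGFbeta (adjusted p = 7.70e-04). Without siCtr 0 d R3 the change in siCtr cells was -2.55 and the difference at 0 d 2.74. The order of the 4 groups in Aldh1a7 was that of Aldh1a1 except that siCtr 0 d lay under siIrf1 TGFbeta, and the TGFbeta changes did not differ past the threshold (1.86 ± 0.56, adjusted p = 0.113; 0.0419 with the replicate block). Cyp26b1, which clears retinoic acid, was at 8.65 ± 2.15 CPM in siCtr 0 d and 2.33 ± 0.77 in siIrf1 0 d (-1.88 ± 0.29, adjusted p = 0.0016), and rose to 11.2 ± 1.01 with TGFbeta in siIrf1 cells (2.26 ± 0.27, adjusted p = 1.82e-04). Crabp1 had no count in any library, and Cyp26a1, Crabp2 and Rarb were too low to be tested.

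Among retinoic acid receptors and targets (10 of 17 tested), 3 rose and 1 fell with TGFbeta in siCtr cells and 4 rose and none fell in siIrf1 cells. With siIrf1, 2 were higher and 4 lower at 0 d and 1 was higher and 1 lower with TGFbeta. Rarg, a retinoic acid receptor, was at 19.3 ± 0.30 CPM in siCtr 0 d and 7.61 ± 0.89 in siIrf1 0 d (log2 -1.34 ± 0.18, adjusted p = 9.56e-04). With TGFbeta it was at 28.1 ± 1.72 and 13.8 ± 0.97 CPM (-1.03 ± 0.17, adjusted p = 0.0035). Nrip1, a retinoic acid target and receptor corepressor, rose from 3.13 ± 2.04 to 21.7 ± 6.10 CPM in siCtr cells (2.78 ± 0.48, adjusted p = 0.0017; 3.80 without siCtr 0 d R3, and 2.09 with the replicate block and correction for gene length and GC).

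The 2 nearest protein-coding genes on each side of each member gave 20 neighbours, of which 14 were tested. With TGFbeta in siCtr cells 2 of them rose and 4 fell, beside 32.5% of all tested genes, and in siIrf1 cells 1 rose and 3 fell, beside 21.3%. With siIrf1, 4 were higher (Sult1b1, Rorb, Anxa1 and Aldh1a7) and 2 lower (Tnxb and Ubl7) at 0 d, beside 31.8%, and 2 were higher (Stra6 and Aldh1a7) and 1 lower (C4b) with TGFbeta, beside 18.0%. The TGFbeta change was higher in siIrf1 cells for 2 (Stra6 and Tnxb), beside 4.12%. Tnxb, a tenascin gene next to Cyp21a1, was at 105 ± 6.19 CPM in siCtr 0 d and 18.0 ± 6.12 in siIrf1 0 d (log2 -2.54 ± 0.24, adjusted p = 2.35e-04). In siCtr TGFbeta it was at 10.6 ± 0.44 CPM (-3.30 ± 0.29, adjusted p = 1.88e-05; -3.90 after correction for gene length and GC) and in siIrf1 TGFbeta at 14.9 ± 0.82. Tnxb thus moved opposite to Cyp21a1 with TGFbeta in siCtr cells and in the same direction with siIrf1 at 0 d. C4b, a complement gene on the same side, rose from 0.378 ± 0.020 to 2.71 ± 0.46 CPM in siCtr cells (2.83 ± 0.37, adjusted p = 2.63e-04) and from 0.251 ± 0.066 to 0.864 ± 0.198 in siIrf1 cells (1.78 ± 0.32, adjusted p = 0.0024). Stk19 and Dxo, whose starts lie 32.4 and 32.5 kb from that of Cyp21a1, passed in no contrast, though with the replicate block Stk19 passed for siIrf1 at 0 d (-0.88, adjusted p = 0.0405). Of the neighbours of Dio1, Lrrc42, Hspb11 and Yipf1 passed in none, while Ndc1, a nuclear pore gene 60.6 kb away, fell with TGFbeta. It went from 76.7 ± 0.41 to 36.5 ± 7.02 CPM in siCtr cells (-1.07 ± 0.27, adjusted p = 0.0130) and from 78.8 ± 19.2 to 47.6 ± 9.32 in siIrf1 cells (-0.73 ± 0.22, adjusted p = 0.0394). The former call ended without siCtr 0 d R1 (-1.02) or siCtr TGFbeta R2 (-0.80). The latter ended with the compared groups fitted alone (-0.72) and without siIrf1 0 d R1 (-0.57) or R3, siCtr TGFbeta R2 or R3, or siIrf1 TGFbeta R1 or R2 (-0.58). Stra6 and Ubl7 were the tested neighbours of Cyp11a1, at 57.4 and 95.4 kb. Ubl7 was at 57.2 ± 2.42 CPM in siCtr 0 d and 35.9 ± 6.36 in siIrf1 0 d (-0.67 ± 0.18, adjusted p = 0.0182), a call that ended after correction for gene length and GC (-0.22) and on leaving out siCtr 0 d R1 or R3, or siIrf1 0 d R1 or R3. On the lower-coordinate side of Aldh1a1, Anxa1, which encodes annexin A1, was at 202 ± 146 CPM in siCtr 0 d and 585 ± 57.1 in siIrf1 0 d (1.53 ± 0.45, adjusted p = 0.0274). That call ended with no filter on low counts, with the block and the correction for gene length and GC together (0.86), and without siCtr 0 d R1 (0.93) or siIrf1 0 d R1 (1.51) or R3 (1.47), and the value was 2.63 without siCtr 0 d R3. Anxa1 was at 544 ± 171 CPM in siCtr TGFbeta (1.43 ± 0.47, adjusted p = 0.0425), a call lost with the replicate block (1.55), with no filter on low counts, with the compared groups fitted alone, and without siCtr 0 d R1 (0.87), siCtr TGFbeta R2 (1.13), siIrf1 TGFbeta R3 or any siIrf1 0 d library. Rorb, a nuclear receptor gene 1382 kb away on that side, was at 0.621 ± 0.323 CPM in siCtr 0 d and 1.95 ± 0.34 in siIrf1 0 d (1.62 ± 0.41, adjusted p = 0.0153). It no longer passed after correction for gene length and GC (0.30) or without siCtr 0 d R1 (1.19) or siIrf1 0 d R3 (1.47), and was 2.37 without siCtr 0 d R3. Sult1e1 and Csn1s1, beside Sult1d1, and Tmc1, beside Aldh1a1, had no count in any library.

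**Figure D4:**
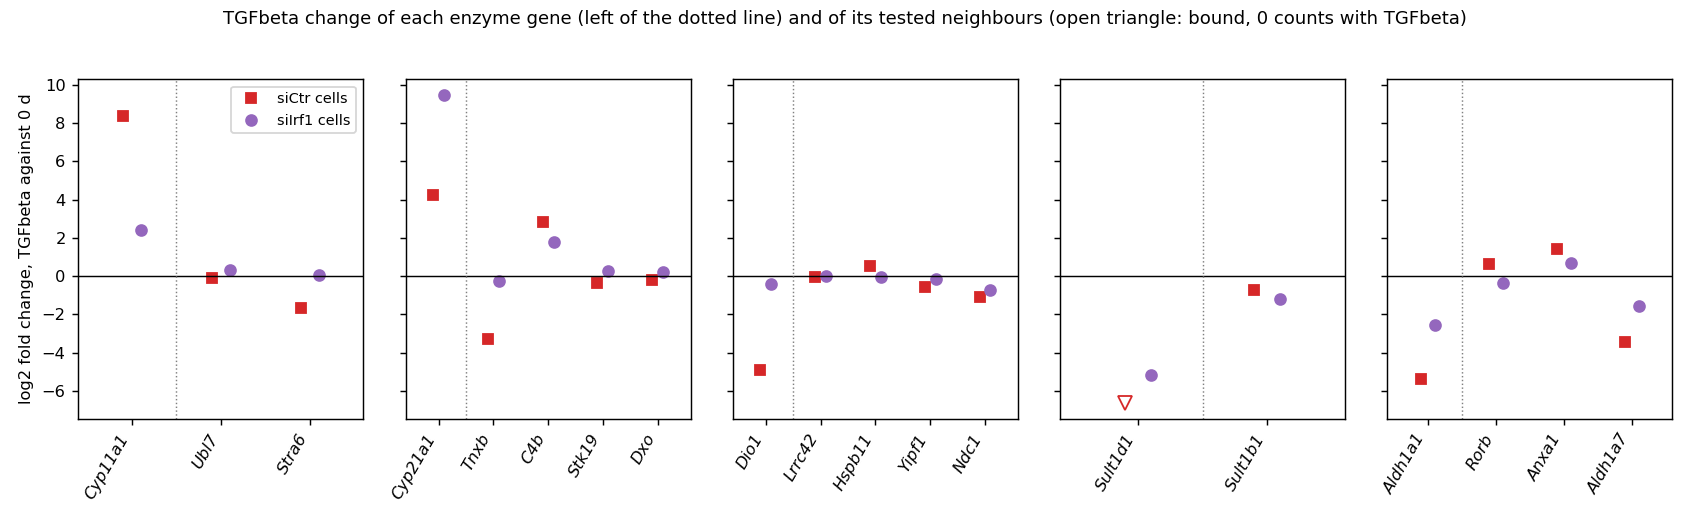
log2 fold change with TGFbeta against 0 d in siCtr (red squares) and siIrf1 cells (purple circles), for each of the 5 genes (left of the dotted line) and its tested neighbours. The open triangle is the bound for Sult1d1, and Tnxb lies below 0 in siCtr cells while Cyp21a1 beside it lies above.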

How the data were processed

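Gene counts were made by the authors and deposited as 1 table of 24454 genes in 10 libraries. Per the submitters' processing notes, STAR and the mm10 (GRCm38) build were used. No version, counting tool or strand setting is given in the sources used here. The deposited gene lengths served for values per length. RefSeq (GRCm38.p6) gave symbols for 24374 IDs and GENCODE for 7. Counts were fitted in edgeR 4.0.16 (R 4.3.3) with TMM scaling, filterByExpr and the robust quasi-likelihood F test, with the 4 groups as the model, all 10 libraries in 1 fit and 6 residual degrees of freedom. Benjamini-Hochberg adjustment ran over all 13135 genes tested, at a threshold of 0.05. The fit was also run on simulated counts with a single dispersion for all genes and no trend on GC. That run does not measure the error rate in libraries that differ in the level of AT-rich genes. Alternatives were other scaling, filters, a replicate block, correction for gene length and GC (a spline trend per library, given to edgeR as offsets), DESeq2 1.42.0 and each library left out. Named genes were a list of key pathway genes, up to 2 called genes with the largest changes per list and contrast among those with at least 1 CPM, the 2 nearest genes on each side and the 3 most alike per member. Members and lists were chosen with earlier results of these data known. Same-numbered libraries deviated together in the data between siIrf1 0 d and siIrf1 TGFbeta (correlations of 0.14 to 0.45 for the 3 numbers), which was taken as pairing there. Correlations were also 0.12 and 0.33 between siCtr 0 d and siIrf1 0 d, and 0.22 and 0.10 between siIrf1 0 d and siCtr TGFbeta. Pairing was not taken for those. The p-values above are from the fit without a replicate block, except where the block is named. Those for TGFbeta in siIrf1 cells thus leave out the pairing taken there. With the block, 41 pathway genes passed in that contrast rather than 35. Over all 12 pairs the range was -0.39 to 0.45, with 8 over 0.1. A further code in the sample titles goes with the replicate number in every group, and the labels do not say what it marks.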

Additional observations from a re-analysis of the deposited data

Results flagged for a closer look

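In 11 pathway or neighbour genes outside the 5, the TGFbeta change differed between siIrf1 and siCtr cells by edgeR's test of the difference itself, given here as log2 in siIrf1 minus siCtr cells. For Tsc22d3 it was 2.15 (adjusted p = 0.0016) and for Tnxb 3.03 (adjusted p = 0.0016). For Dio3 it was 2.56 (adjusted p = 0.0045), a call that ended without siCtr TGFbeta R2 (2.38). For Rbp4 it was 1.84 (adjusted p = 0.0045), lost without siCtr TGFbeta R2 (1.66). For Stra6 it was 1.70 (adjusted p = 0.0057), lost without siCtr TGFbeta R2 or R3. For Cyp26b1 it was 2.54 (adjusted p = 0.0078), lost without siCtr TGFbeta R2 (2.43) or R3 (2.48). For Hsd11b1 it was -1.32 (adjusted p = 0.0116), lost after correction for gene length and GC (-0.85) and without siCtr TGFbeta R2 (-1.48) or R3. For Slc7a5 it was 1.18 (adjusted p = 0.0137), lost without siCtr 0 d R1 (0.99) or siCtr TGFbeta R2 (1.09) or R3 (1.10). For Sult2b1 it was 1.70 (adjusted p = 0.0162), lost without siCtr 0 d R1 (1.58), siIrf1 0 d R1 (1.69), siCtr TGFbeta R2 (1.71) or R3 (1.55). For Nr5a2 the fitted value was 6.11 (adjusted p = 0.0295), which depends on the prior count since siCtr TGFbeta had no count, and the call ended without siIrf1 0 d R1 or R3, siCtr TGFbeta R2 or R3, or siIrf1 TGFbeta R1 or R2. For Dhrs3 it was 2.93 (adjusted p = 0.0437), and the call ended on leaving out any library other than siCtr 0 d R3 and siIrf1 TGFbeta R1, and with a stricter filter on low counts (2.85).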

How the results depend on the processing

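For the 5 genes, 414 values stayed within the replicate spread across the alternatives, 29 moved beyond it and 2 reversed: Sult1d1 for siIrf1 at 0 d came to -0.14 after correction for gene length and GC, and to -0.24 with the replicate block as well. Among other named genes, Adh7 for siIrf1 with TGFbeta went from 0.19 to -0.59 under the latter setting. That correction raised the number of genes called for TGFbeta in siIrf1 cells from 2799 (1523 higher, 1276 lower) to 4344 (1905 higher, 2439 lower), or 4337 with the block. It raised the number for siIrf1 with TGFbeta from 2365 to 3588, and for the difference between the TGFbeta changes from 541 to 1233 (914 with the block, 1150 with DESeq2). Pathway genes called for that difference went from 10 to 21, and to 18 with DESeq2. The replicate block alone gave 4347, 3046, 5233, 2230 and 522 genes called in the 5 contrasts and moved no count by over 1.5 times. Of the calls named above outside the 5 genes, it ended those for TGFbeta in siCtr cells of Fdx1 (-0.51) and Anxa1 (1.55). Leaving out 1 library gave 2297 to 5159 genes for TGFbeta in siCtr cells (main 4267), 1957 to 3300 in siIrf1 cells, 1700 to 5192 for siIrf1 at 0 d (main 4175), 762 to 2978 for siIrf1 with TGFbeta and 122 to 1590 for the difference. Pathway genes ran over 30 to 58, 28 to 38, 21 to 47, 10 to 29 and 1 to 16. The lowest counts of TGFbeta in siCtr cells, siIrf1 with TGFbeta and the difference came without siCtr TGFbeta R2, and the lowest for siIrf1 at 0 d (1700) without siCtr 0 d R1. Without siCtr 0 d R3 the difference had 396 higher and 1194 lower calls. The cause was not tested. Groups of 2 and 3 libraries, and 4 counts or fewer per group for Cyp11a1, Cyp21a1 and Sult1d1 in their lowest groups, limit the precision.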

Other observations

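Other genes of these pathways also had group-dependent levels, low ones in the case of Ttr, Nr0b2 and Akr1c18. Ttr, a carrier of thyroid hormone and retinol-binding protein, had no count in siCtr TGFbeta and was at 1.36 ± 0.62 CPM (SD, n = 3) in siIrf1 TGFbeta, at least 37.9-fold higher (adjusted p = 0.0026, edgeR). Nr0b2, a nuclear receptor corepressor, was at 1.91 ± 0.43 CPM (n = 2) in siCtr 0 d and had no count in siCtr TGFbeta, at least 53.4-fold lower (adjusted p = 6.24e-05). Akr1c18, which inactivates progesterone, was at 2.76 ± 0.78 CPM (n = 3) in siIrf1 0 d and 0.049 ± 0.034 in siIrf1 TGFbeta (log2 -5.84 ± 0.54, adjusted p = 3.80e-05). Scly, which recovers selenium from selenocysteine, was at 26.7 ± 0.14 CPM (n = 2) in siCtr TGFbeta and 59.2 ± 9.00 (n = 3) in siIrf1 TGFbeta (1.15 ± 0.19, adjusted p = 0.0029), a call that ended without siCtr TGFbeta R2 (1.10).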
